A study of Arabidopsis thaliana with 6 samples.

Results

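Phosphoethanolamine N-methyltransferases make the phosphocholine from which plants build phosphatidylcholine, and 2 genes of this family, AT1G73600 and AT1G48600, were followed in leaves of an Arabidopsis chromatin mutant. They were chosen as family members that the probe table of the series pairs with a probe set of their own, out of 13286 genes with such a probe set. AT1G73600 came to attention through its low level in the mutant, so the comparison between genotypes is described for both genes and not tested. Each gene has 1 probe set, 259842_at for AT1G73600 and 261309_at for AT1G48600 (symbol PMEAMT), and neither ID carries the suffix that marks possible cross-hybridisation. The third family gene of Arabidopsis, AT3G18000 (XPL1), is not in that probe table and was not analysed here. Below, a gene is called measured where that probe table pairs it with a probe set of its own. A gene not called measured may still have signal on the arrays.

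RNA was measured on 6 single-colour ATH1 arrays. The mutant group holds 3 arrays of leaves from chr11-1 chr17-1 plants, which carry mutant alleles of both CHR11 and CHR17, the ISWI-type chromatin-remodelling ATPase genes of Arabidopsis. The other group holds 3 arrays of leaves from wild-type Col-0 plants. All plants were 15 days old, untreated and grown at 16 h light, 8 h dark and 21°C. The series title states the purpose, an analysis of gene expression in the double mutant. Whether arrays of one genotype hold RNA of separate plants is not given in the labels, so errors and p-values cover only how far these samples differ, and that may be technical. With 3 arrays a group, that number limits how precise any value is.

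Phosphoethanolamine N-methyltransferases add methyl groups from S-adenosylmethionine, step by step, to phosphoethanolamine, and the last product is phosphocholine. Phosphocholine is then joined to a nucleotide and passed to diacylglycerol, giving phosphatidylcholine, the main phospholipid of plant membranes outside the plastid. The protein of XPL1 (also called PEAMT or NMT1) can carry out the whole series of steps, whereas the protein of AT1G48600 is known to take part in the later ones and not in the first. AT1G73600 has been named NMT3 and can stand in for XPL1 in plants that lack it.

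The deposited values are log2 levels of array signal, and the medians of the 6 arrays lay between 4.73 and 4.77. CHR17, a targeted gene, had levels of 5.33, 4.91 and 5.11 in mutant leaves and 4.57, 4.92 and 4.84 in Col-0 leaves. The groups overlapped, and the log2 difference of 0.34 (SE 0.13) did not pass limma (Benjamini-Hochberg adjusted p = 0.0832), so the transcript cannot serve to check the genotypes; CHR11 was not analysed here. The 3 leaf markers measured, LHCB4.1, LHCB4.2 and RCA, had levels of 13.43 to 13.71 in the mutant and 12.90 to 13.93 in Col-0, near the top of the scale. Summed over the list, these leaf markers came to 40.57 to 40.75 in the mutant arrays and 40.40 to 40.48 in the Col-0 arrays; LHCB4.2 passed limma (0.54, adjusted p = 0.000747) and the other two did not. The 7 markers of root, flower and meristem lay between 3.58 and 4.46 in the mutant and between 3.49 and 4.56 in Col-0, below every array median. Of these 7, the root list gene AT4G11290, a peroxidase family gene, was lower in the mutant (-0.63, limma adjusted p = 0.00195) and the other 6 did not pass. The summed level of the 3 root markers was 11.76 to 12.42 in the mutant and 12.77 to 12.90 in Col-0. The control probe set for the large ribosomal RNA read 8.90 in mutant replicate 1 and 10.85 in mutant replicates 2 and 3, against 10.49, 10.32 and 10.33 in Col-0. The part of these readings in the results below was not tested; each difference was also computed without mutant replicate 1.

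Leaves of the double mutant gave far less signal for AT1G73600 than Col-0 leaves. The levels were 6.49, 6.85 and 6.35 in the mutant arrays and 9.71, 9.99 and 9.97 in the Col-0 arrays. All mutant arrays lay below all Col-0 arrays, with a gap of 2.87 between the highest mutant and the lowest Col-0 value. Means were 6.56 ± 0.26 in the mutant and 9.89 ± 0.15 in Col-0 (SD, n = 3 each), a log2 difference of -3.33, or a signal in the mutant of 9.93% of that in Col-0. The spread was widest among the mutant arrays, where replicate 2 was the highest. Without mutant replicate 1 the log2 difference was -3.29, and over the 6 settings that left out 1 array each it lay between -3.47 and -3.22. Fewer cells that express a gene and less RNA per cell cannot be told apart in whole leaves.

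AT1G73600 was still measured above most probe sets in the mutant. Its level was 1.72, 2.11 and 1.61 above the array median in the mutant arrays and 4.96, 5.23 and 5.22 above it in the Col-0 arrays. In rank it stood at the 68.9th, 73.7th and 68.8th percentile of the 22746 tested probe sets in the mutant and at the 94.1st, 94.9th and 94.9th percentile in Col-0. The gene therefore moved out of the bright end of the array signal without reaching the dim end of the scale. Background was not measured, so these ratios describe signal on the array, which need not scale with the amount of transcript.

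PMEAMT (AT1G48600) was slightly lower in the mutant and stayed among the bright probe sets in both genotypes. Its levels were 9.66, 9.76 and 9.79 in the mutant arrays and 10.15, 10.23 and 10.17 in the Col-0 arrays. The groups did not overlap here either, but the gap between them was 0.36. Means were 9.74 ± 0.06 in the mutant and 10.19 ± 0.04 in Col-0 (SD, n = 3 each), a log2 difference of -0.45, or 73.2% of the Col-0 signal. The difference was several times the SD of either group and lay between -0.48 and -0.41 over the settings that left out 1 array each. PMEAMT stood at the 93.9th to 94.3rd percentile in the mutant arrays and at the 95.5th to 95.8th percentile in the Col-0 arrays.

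**Figure D1:**
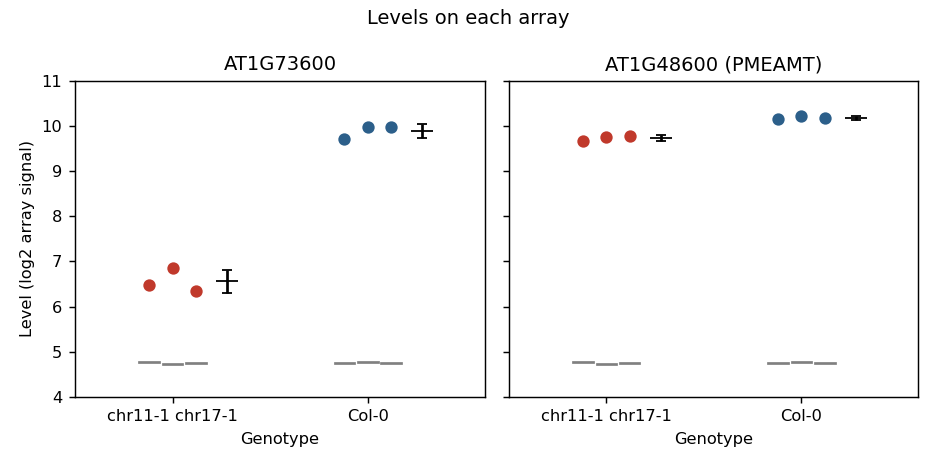
Levels of AT1G73600 and AT1G48600 on each array, on the log2 scale of array signal. Points are the 3 chr11-1 chr17-1 arrays (red) and the 3 Col-0 arrays (blue), in replicate order from left to right; black marks show the mean and SD, and short grey lines the median of each array. AT1G73600 averaged 6.56 in the mutant and 9.89 in Col-0, and AT1G48600 averaged 9.74 in the mutant and 10.19 in Col-0; levels of the 2 probe sets are not to be set against each other as amounts.

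For both genes all 3 mutant arrays lay below all 3 Col-0 arrays, which was also true of 20.1% of the 22746 tested probe sets. A lower level by at least 2-fold, which AT1G73600 showed and PMEAMT did not, was found in 2.28% of probe sets. AT1G73600 had the 11th largest negative difference of all probe sets and the 6th of the 13286 genes. Among the 807 probe sets whose mean level in Col-0 lay within 0.5 of its own, 2 had a difference of this size or larger, itself included, and their median difference was -0.07. PMEAMT had rank 1263 among the genes, and 164 of 692 probe sets of like Col-0 level had a difference at least as negative. Over all probe sets the median difference was -0.0028.

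**Figure D2:**
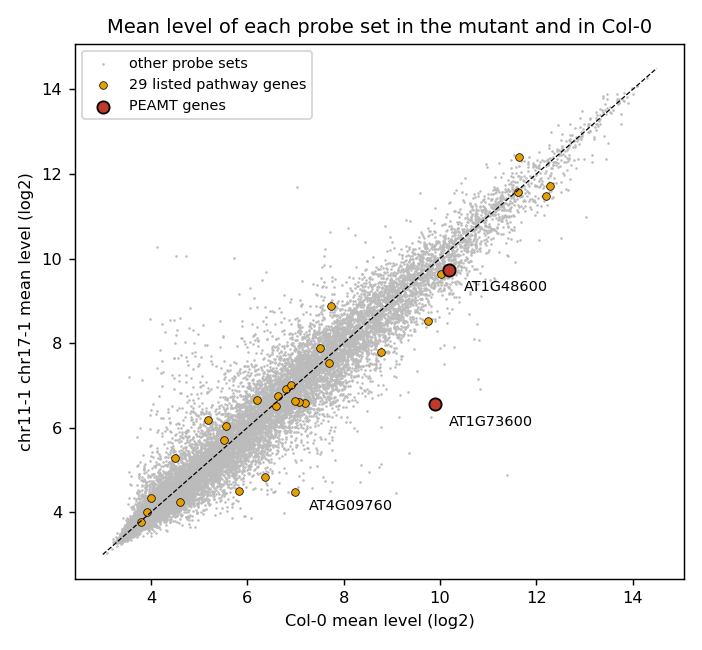
Mean level of every tested probe set in chr11-1 chr17-1 leaves (vertical axis) and in Col-0 leaves (horizontal axis), both on the log2 scale. The dashed line marks equal levels. AT1G73600 (red) lies well below the line at a difference of -3.33 and AT1G48600 (red) just below it at -0.45; the 29 listed pathway genes (orange) lie on both sides, AT4G09760 lowest against the line at -2.51.

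The unequal change of the paralogues was present on each array. A probe set binds its own target with its own strength, so the level of AT1G73600 minus that of PMEAMT has no meaning as an amount, but its change between genotypes does. This log2 quantity was -3.18, -2.91 and -3.44 in the mutant arrays and -0.44, -0.24 and -0.20 in the Col-0 arrays. All mutant values lay far below all Col-0 values. Means were -3.17 ± 0.27 in the mutant and -0.29 ± 0.13 in Col-0 (SD, n = 3 each), so the ratio of AT1G73600 to PMEAMT signal was 7.37-fold lower in the mutant, a log2 difference of -2.88. Set against the Col-0 mean of the gene, the mutant arrays stood at -3.40, -3.05 and -3.54 for AT1G73600 and at -0.52, -0.43 and -0.40 for PMEAMT. Mutant replicate 3 was thus the lowest of the mutant arrays for AT1G73600 and the highest for PMEAMT. The deviations of the 2 genes from their genotype means had a Pearson r of 0.21 over the 6 arrays, given as a description.

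The genes of the nucleotide route, which include the kinases that make phosphocholine from choline and the enzymes that use it, were called in both directions. In the list of kinases, CTP-dependent activating enzymes and aminoalcoholphosphotransferases of the nucleotide (Kennedy) route, 5 of 9 genes were measured. Of these, 2 were lower and 2 higher in the mutant and 1 did not pass, with a median difference of -0.07. Over all probe sets limma called 28.6% (14.0% higher and 14.7% lower in the mutant), and 40.2% of those not among the lowest 30% by level.

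AT4G09760, a choline kinase gene, had the largest difference of the list. Its levels were 4.50, 4.46 and 4.46 in the mutant arrays and 6.90, 6.78 and 7.26 in the Col-0 arrays. Choline kinases turn free choline into phosphocholine, the same product that the methyltransferases reach from phosphoethanolamine. AT4G09760 fell 5.69-fold, to a mean of 4.47 ± 0.03 in the mutant against 6.98 ± 0.25 in Col-0 (SD, n = 3 each; limma adjusted p = 2.71e-07). In the mutant its signal lay below every array median, where AT1G73600 did not. The other choline kinase gene measured, AT1G74320, rose by a log2 difference of 0.48 (SE 0.11, limma adjusted p = 0.0090), with levels of 6.12, 6.18 and 5.80 in the mutant and 5.56, 5.63 and 5.46 in Col-0.

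CCT1 and CCT2 encode the enzymes that activate phosphocholine by joining it to CTP, and CCT2 passed the test while CCT1 did not; the difference between the 2 changes was not tested. CCT2 had levels of 4.56, 4.49 and 4.48 in the mutant arrays and 5.65, 5.98 and 5.86 in the Col-0 arrays. It fell 2.50-fold (limma adjusted p = 7.29e-06) and ended below every array median. CCT1 had levels of 6.56, 6.45 and 6.54 in the mutant and 6.42, 6.66 and 6.68 in Col-0, overlapping groups with a difference of -0.07 (SE 0.10, limma adjusted p = 0.703). AAPT2, an aminoalcoholphosphotransferase gene of the last step, rose by 0.38 on the log2 scale (SE 0.11, limma adjusted p = 0.0245), to 7.89 ± 0.05 in the mutant against 7.50 ± 0.20 in Col-0 (SD, n = 3 each). AAPT2 missed the threshold when mutant replicate 2 was left out (0.36, limma adjusted p = 0.0816) and when Col-0 replicate 1 was (0.27, limma adjusted p = 0.0789), and the list then had 1 higher gene. Its adjusted p ran from 0.0203 to 0.0816 across settings.

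Choline that is not built into lipid can be oxidised towards glycine betaine in some plants, and ALDH10A8 and ALDH10A9 encode aldehyde dehydrogenases of the betaine aldehyde type. They were the 2 genes measured of the 10 in the list of ethanolamine supply and other head group enzymes. ALDH10A8 fell, with levels of 8.07, 7.52 and 7.81 in the mutant and 8.63, 8.88 and 8.79 in Col-0 (log2 difference -0.97, SE 0.14, limma adjusted p = 0.000376). ALDH10A9 had -0.16 and did not pass (limma adjusted p = 0.264). A list added later held 5 genes in all, of the choline transporter-like family and a choline monooxygenase-like gene among them. Of these, 2 rose and 3 did not pass, with a median of 0.12. Over all probe sets 28.6% were called, and 40.2% outside the dimmest 30%, so the count is near that share. The 2 that rose were the transporter-like genes AT5G13760, by 1.00 (6.18 ± 0.27 in the mutant and 5.18 ± 0.12 in Col-0, SD, n = 3 each; limma adjusted p = 0.000262), and AT1G25500, by 0.78 (limma adjusted p = 0.000265). AT4G38640 had 0.12, AT5G17830, a dim probe set at 3.78 in the mutant and 3.80 in Col-0, had -0.02, and the monooxygenase-like gene AT4G29890 had 0.08.

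The lysophospholipid acyltransferase genes AT1G80950 and AT2G45670, which take part in exchanging fatty acids on phospholipids, were the 2 measured of 6 in their list, and neither passed. AT2G45670 had a log2 difference of 0.46 (SE 0.19, limma adjusted p = 0.111) and AT1G80950 one of 0.12 (SE 0.16, limma adjusted p = 0.695), with overlapping groups in both. The median of the list was 0.29. By unadjusted p, AT2G45670 had 0.0380. Another 6 lists had 0 genes that the probe table pairs with a probe set of their own, so these lists were not analysed here. They were phosphocholine and glycerophosphodiester breakdown, phospholipases, the methyl donor cycle, galactolipid and sulfolipid synthesis, the phosphate starvation response, and sterol methyltransferases. Whether the arrays carry signal for their genes was not looked at. The route around the methyltransferases was therefore seen through 9 of 96 listed genes.

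Folate enzymes and the glycine cleavage system supply the methyl groups that end up on S-adenosylmethionine. In this list, added later, 7 of 13 genes were measured: 5 fell, 1 rose and 1 did not pass, with a median log2 difference of -0.58 against -0.0028 over all probe sets. Over all probe sets 14.7% were called lower and 28.6% in either direction, and 40.2% were called outside the dimmest 30%. AT1G11860, the T-protein gene of glycine cleavage, fell by 0.74 on the log2 scale, with 11.55, 11.44 and 11.41 in the mutant and 12.16, 12.29 and 12.18 in Col-0 (limma adjusted p = 0.000130). The H-protein genes that were measured went opposite ways. AT1G32470 fell by 0.58 (log2; limma adjusted p = 0.00157), while AT2G35120 rose 2.21-fold, to 8.89 ± 0.04 in the mutant against 7.74 ± 0.14 in Col-0 (SD, n = 3 each; limma adjusted p = 1.37e-05).

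Both measured genes for formyltetrahydrofolate deformylase, an enzyme that returns formyl-folate to free folate, fell. AT5G47435 had 8.60, 8.41 and 8.54 in the mutant arrays and 9.75, 9.84 and 9.69 in the Col-0 arrays, a 2.36-fold fall (limma adjusted p = 5.45e-06). AT4G17360 fell 2.86-fold at dimmer levels, with 5.11, 4.83 and 4.58 in the mutant and 6.21, 6.14 and 6.73 in Col-0 (limma adjusted p = 8.78e-05). Of the methylenetetrahydrofolate dehydrogenase genes, AT3G12290 fell by 0.39 (log2; limma adjusted p = 0.0123) and AT2G38660 had 0.19 (limma adjusted p = 0.259). AT3G12290 missed the threshold when Col-0 replicate 2 was left out (-0.35, limma adjusted p = 0.0545), and its adjusted p ran from 0.00321 to 0.0545 across settings.

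Other genes whose proteins use or carry S-adenosylmethionine showed no common direction. Of 8 such genes named in the gene table, a list also added later, 2 rose, 3 fell and 3 did not pass, with a median of -0.19. SAMDC, the S-adenosylmethionine decarboxylase gene that leads to polyamines, rose by 0.76, with 12.22, 12.42 and 12.59 in the mutant and 11.59, 11.68 and 11.67 in Col-0 (limma adjusted p = 0.000374). LSMT-L, a lysine methyltransferase-like gene, fell by 0.61 (log2; limma adjusted p = 0.0113), and SAMTL, a transporter-like gene, by 0.47 (limma adjusted p = 0.00589). CCOAMT (0.33, limma adjusted p = 0.0307) and the calmodulin methyltransferase gene AT4G35987 (-0.34, limma adjusted p = 0.0227) also passed, at levels below the array medians. CCOAMT lost the call without mutant replicate 2 (0.34, limma adjusted p = 0.0730), mutant replicate 3 (0.26, 0.109), Col-0 replicate 2 (0.28, 0.121) or Col-0 replicate 3 (0.35, 0.0679). AT4G35987 lost it without mutant replicate 2 (-0.32, limma adjusted p = 0.0751), mutant replicate 3 (-0.28, 0.0819), Col-0 replicate 2 (-0.33, 0.0776) or Col-0 replicate 3 (-0.34, 0.0680). MMT, the methionine S-methyltransferase gene, had -0.36 (limma adjusted p = 0.130) and passed without mutant replicate 1 (-0.54, limma adjusted p = 0.0103). CHLM, of chlorophyll synthesis, had -0.04 and JMT, of methyl jasmonate synthesis, 0.08. Over all these lists 18 of 29 measured genes (62.1%) passed, 7 higher and 11 lower in the mutant. The lists fixed first gave 5 of 9 and those added later 13 of 20. Over all probe sets 28.6% were called. Outside the dimmest 30% of probe sets 40.2% were called, but AT5G17830 and JMT of the 29 lie within that 30%. The lists were chosen with earlier results of these data known, so 62.1% cannot be weighed against these shares.

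**Figure D3:**
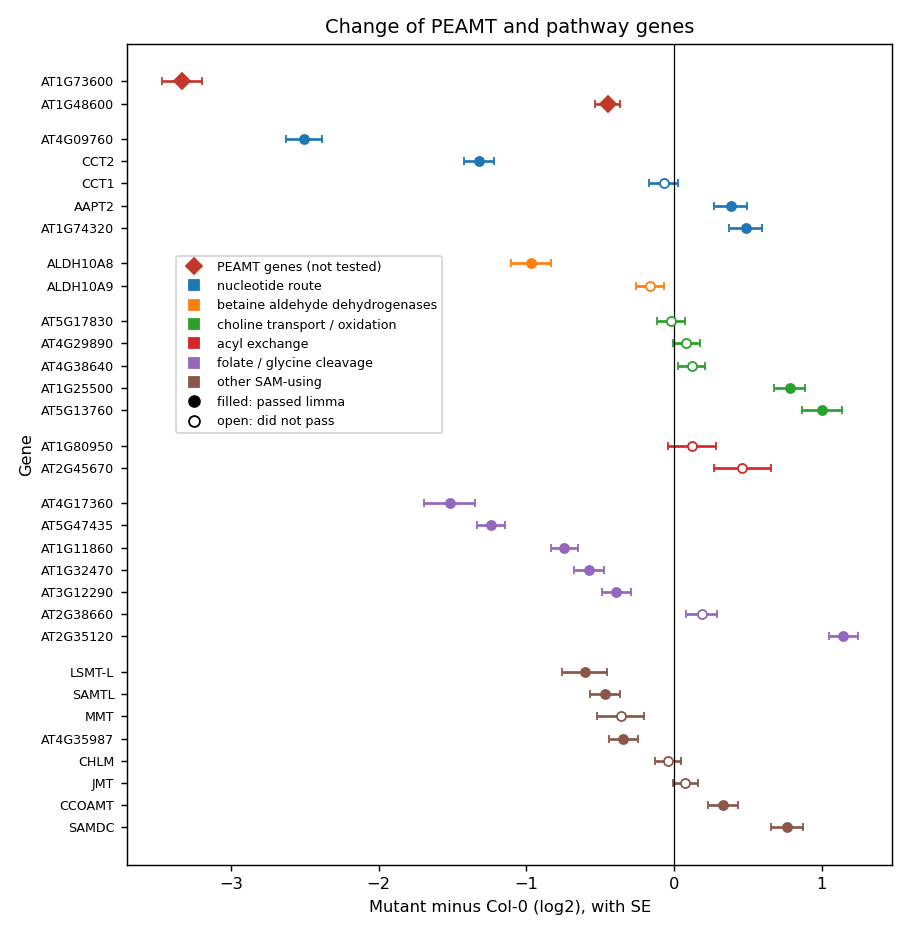
Log2 difference, mutant minus Col-0, of AT1G73600 and AT1G48600 (red diamonds, not tested) and of the 29 measured genes of the lists, grouped by role; bars are the SE of the limma fit. Filled points passed limma at adjusted p 0.05 and open points did not. AT1G73600 (-3.33) stands lowest, followed by the choline kinase gene AT4G09760 (-2.51), while AT2G35120 (1.15) is the highest.

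AT1G73600 and PMEAMT lie on the same chromosome, chromosome 1, with 3182 genes of the TAIR10.1 gene table between them. The measured genes around each were examined, 4 on either side, chosen by position alone. Genes in between that were not measured were passed over. The farthest was thus the 10th gene of the gene table from AT1G73600 and the 9th from PMEAMT. Around AT1G73600 the differences ran from -0.19 to 0.33, with a median of 0.02. None was lower by limma (0 at adjusted p 0.05 and 0 at an unadjusted p below 0.05). Over all probe sets 14.7% were called lower and 28.6% in either direction. With 8 genes, 0 lower calls cannot be told from that share. AT1G73650, the fourth measured gene after it, was higher (0.28, limma adjusted p = 0.0471), and 7 did not pass. AT1G73650 lost the call in each setting that left out 1 array (limma adjusted p 0.0618 to 0.160) and with array weights (0.0620), and with quantile normalization AT1G73630 (0.32, limma adjusted p = 0.0448) passed beside it. The nearest measured genes, AT1G73570 (5th gene of the gene table before) and AT1G73610 (3rd after), had -0.05 and 0.20. Genes closer than these were not analysed. AT1G73570, AT1G73560, AT1G73510, AT1G73610 and AT1G73620 were dim in both genotypes and could hardly show a fall. The brighter AT1G73530 (-0.09, 9th before), AT1G73630 (0.33, 5th after) and AT1G73650 (0.28, 7th after) did not share the low signal of AT1G73600. Whether the genes next to AT1G73600 shared it was not tested.

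Around PMEAMT the 8 measured genes had differences from -0.94 to 0.46, with a median of -0.02. AT1G48650 fell by 0.94 (log2; limma adjusted p = 0.00277) and AT1G48570 by 0.48 (limma adjusted p = 0.0199), AT1G48550 rose by 0.46 (limma adjusted p = 0.0144), and 5 did not pass. These 3 calls among 8 genes are close to the share over all probe sets (28.6%, or 40.2% outside the dimmest 30%). AT1G48570 no longer passed without mutant replicate 2 or 3 or without Col-0 replicate 2 or 3 (limma adjusted p 0.0573 to 0.0693), and AT1G48550 not without mutant replicate 2 or 3 or Col-0 replicate 3 (limma adjusted p up to 0.0622). AT1G48610, the nearest measured gene after PMEAMT, had -0.20 (limma adjusted p = 0.185), and AT1G48580, the nearest before it, 0.12 at a level of 3.77 in the mutant and 3.65 in Col-0.

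**Figure D4:**
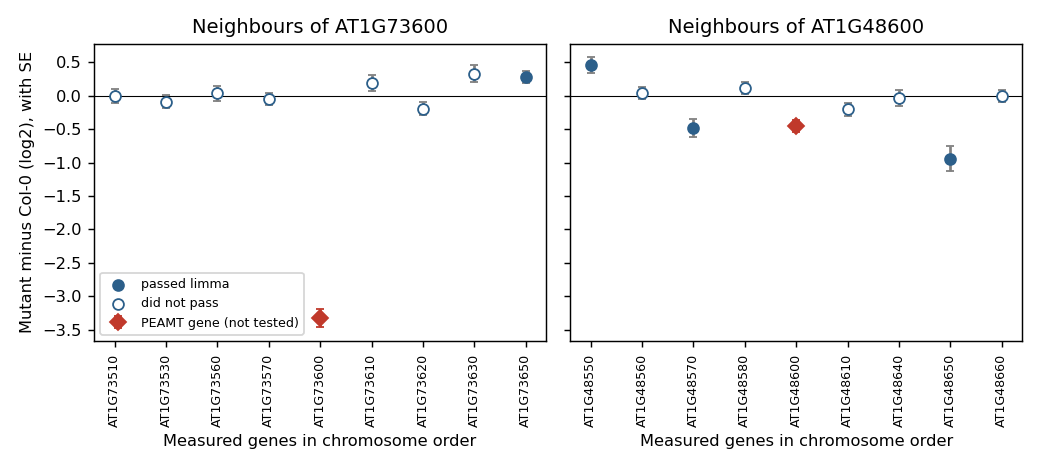
Log2 difference, mutant minus Col-0, of the measured genes on either side of AT1G73600 (left) and AT1G48600 (right), in chromosome order and not to scale of distance; bars are the SE of the limma fit. Filled points passed limma at adjusted p 0.05 and open points did not; red diamonds are the methyltransferase genes, not tested. The neighbours of AT1G73600 lie between -0.19 and 0.33 and those of AT1G48600 between -0.94 and 0.46.

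The genes whose levels ran most closely with each methyltransferase gene over the 6 arrays were taken by Pearson's r, as a description. Since the arrays fall into 2 genotypes, r is carried by the genotype difference: 647 of 13285 genes had an r above 0.95 with AT1G73600 and 667 an r below -0.95. The highest were AT1G80380, the glycerate kinase gene of photorespiration (r = 0.9995), AAH, an allantoate amidohydrolase gene of purine breakdown (0.999), AT3G23880 (0.999), AT4G34950 (0.998) and AT2G36430 (0.998). AT1G80380 had 9.93, 9.98 and 9.89 in the mutant and 10.57, 10.66 and 10.63 in Col-0, a difference of -0.69, so a like pattern does not mean a difference of like size. AAH had 4.47, 4.58 and 4.39 in the mutant and 6.45, 6.63 and 6.53 in Col-0, and AT3G23880 had 4.62, 4.70 and 4.49 in the mutant and 6.95, 7.14 and 7.05 in Col-0.

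With PMEAMT, 497 genes had an r above 0.95 and 603 an r below -0.95. The highest were AT1G57790 (r = 0.999), the flowering repressor gene SNZ (0.998), THIC, a gene of thiamine synthesis (0.997), PRK, the phosphoribulokinase gene of the Calvin cycle (0.997), and AT2G12400 (0.997). THIC had 9.91, 10.14 and 10.22 in the mutant and 11.36, 11.43 and 11.36 in Col-0. PRK had 12.20, 12.41 and 12.42 in the mutant and 12.93, 13.03 and 12.99 in Col-0. Their mutant values lay below their Col-0 values on all arrays, which the choice by r with PMEAMT makes likely. The same was true of 20.1% of all probe sets. The 2 methyltransferase genes had an r of 0.98 with each other. Of 13285 genes, this ranked PMEAMT 217th for AT1G73600 and AT1G73600 126th for PMEAMT. Neither was thus among the 5 genes named for the other, but each was among those with an r above 0.95.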

How the data were processed

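Leaf RNA was measured on 6 ATH1 arrays. The authors deposited log2 expression levels per probe set, 1 column per array; per the submitters' processing notes the tools were RMA and Partek, with no version, role, order or settings given. Values were used as deposited. From the 22810 probe sets, the 64 Affymetrix controls were removed. Names came from the probe table (503 of its 14016 probe sets have several genes and were not named) and the TAIR10.1 gene table. A gene was represented by its brightest 1-gene probe set.

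All 22746 remaining probe sets were fitted in R 4.3.3 with lmFit and eBayes of limma 3.58.1 (two-sided, mutant minus Col-0, Benjamini-Hochberg over all, threshold adjusted p 0.05), a step tested on simulated data (seed 1). Python 3.11.15 with pandas 2.3.3 made the tables and matplotlib 3.10.9 the figures. The genes and lists were chosen with earlier results of these data known; 3 lists were added once it was seen which genes have names. The named genes are AT1G73600 and AT1G48600, from each list up to 6 genes past the test or the 2 largest differences (other list genes were named after their values were seen), 4 measured neighbours on either side, and the 5 genes of highest r for each. Relatives by protein sequence and a list by gene description were planned and not run, since sequences and descriptions were not used here. Alternatives were quantile normalization, median centring, leaving out the lowest 30% of probe sets or those with a suffix, a trended robust prior, weights per array, the replicate block, leaving out each array, adjusted p 0.01 and, for AT1G73600 and AT1G48600, group medians.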

Additional observations from a re-analysis of the deposited data

How the results depend on the processing

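All alternatives were planned. The log2 differences of AT1G73600 (-3.48 to -3.22), AT1G48600 (-0.48 to -0.41) and of their ratio (-3.01 to -2.75) moved by less than the spread between replicates in the 11 settings run for each; the mean of several probe sets was not run, as each gene has 1. Over all probe sets, the counts of higher and lower calls stayed within 1.5 times their value. With 1 array left out, the nucleotide-route list had 1 to 2 higher genes, the other SAM-using list 1 to 2 higher, the neighbours of AT1G73600 0 higher, and those of AT1G48600 0 to 1 higher and 1 to 2 lower. At adjusted p 0.01 these counts were 1, 1, 0, 0 and 1, and the SAM-using list had 1 lower gene. The neighbours of AT1G73600 had 2 higher with quantile normalization and 0 with array weights. Arrays of the 2 genotypes that share a replicate number showed no positive correlation (r of deviations -0.30, -0.17 and -0.17). Whether they were grown or processed together was not tested. With the replicate block 2768 probe sets were higher and 2914 lower, the neighbours of AT1G73600 had 0 higher and the SAM-using list 1, with CCOAMT (adjusted p 0.0655) and AT4G35987 (0.0582) not passing. Single genes (45 of them) gave 577 values in these settings: 528 kept their sign and their call or lack of one, 28 lost the call, 2 gained it and 19 changed sign. With 1 array left out, AT1G80950 ran from -0.080 to 0.25, AT5G17830 from -0.057 to 0.046, CHLM from -0.083 to 1.67e-05, AT1G73560 from -0.078 to 0.11, AT1G73510 from -0.074 to 0.069, AT1G48640 from -0.11 to 0.093 and AT1G48660 from -0.026 to 0.019. With array weights AT5G17830 had 0.0081, AT1G73510 0.047, AT1G48640 0.024 and AT1G48660 0.00038. With median centring AT1G73510 had 0.0074 and AT1G48660 0.0079, and with quantile normalization AT1G48660 had 0.0013. The causes were not tested. How far signal stands above background was not measured, which limits what dim probe sets can show.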
